A study of Mus musculus with 24 samples.

Results

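The libraries described here are the controls of a study of P16 (the product of Cdkn2a, an inhibitor of the cell cycle) in mouse liver endothelial cells: Cd31+ cells transduced with a non-coding hairpin (nc shRNA) and Cd31+ cells transduced with an empty vector. They were chosen by their labels and are 6 of the 24 libraries of the series, 3 per group, numbered 1, 2 and 3 for nc shRNA and 1, 2 and 5 for empty vector. Per the study's methods the cells came from livers of 3-month-old female C57BL/6 mice, were purified by Cd31, and were cultured and transduced with lentivirus, and RNA was taken 1 week later. The nc shRNA was expressed from pLKO.1, the backbone that also carried the P16 hairpin. The empty vector was pLenti-C-mGFP-P2A-Puro, the backbone of the P16 overexpression construct, with a GFP cassette and without the P16 insert. All groups thus share isolation, culture, transduction and time, and the 2 controls differ in backbone, in the GFP cassette and in the presence of a hairpin, which cannot be told apart here. The sequence of the nc hairpin is not given in the sources used here, and the labels do not say whether equal numbers mark the same mouse or culture, so the spread between libraries of a group may be partly technical. The comparison asks how 2 controls that the study used for different arms differ from each other.

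A short hairpin RNA is cut by Dicer into a small RNA that an Argonaute protein loads and pairs with messages. Full pairing leads to cleavage of the target, while pairing over the first bases of the small RNA, the seed, to a site in a 3′ untranslated region (3′ UTR) lowers many other messages a little, as a microRNA does. Double-stranded RNA and viral nucleic acids can also be sensed by the cell, which then makes type I interferon and, through it, a set of antiviral genes. A control hairpin is meant to carry these general responses without lowering the gene under study.

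The 6 libraries held between 15409767 and 23196881 counts, so that 3 counts, taken as the limit of detection, correspond to 0.129 to 0.195 CPM (counts scaled to library size). Empty vector 5 stood apart. It had 17948 Xist counts and 0 counts of Ddx3y, a Y-linked gene, whereas the other 5 libraries had 1941 to 2557 Ddx3y counts and at most 4 of Xist. Over the series, 8 of 24 libraries carried Xist, 16 carried Ddx3y and none carried both, although the methods name female mice. Empty vector 5 also had 6081 counts of Pecam1, the gene of Cd31, against 1363 to 2583 in the other 5, and the summed level of 24 endothelial markers was 2041 CPM in it and 568 to 1195 CPM in the others. Of these endothelial markers 19 had at least 10 counts in every library, whereas 14 of 20 hepatocyte markers, Alb (0 to 2 counts) among them, and 11 of 15 lymphoid markers had 3 counts or fewer in every library. Other cell types were present by their markers: 15 of 26 macrophage markers had at least 10 counts in every library (57.2 to 203 CPM in sum), and the stellate and contractile markers summed to 28180 to 47560 CPM. The hepatocyte markers summed to 762 CPM in nc shRNA 1 and 999 CPM in empty vector 1, against 78.9 to 184 CPM in the others. The part of these cells in the results was not tested. Therefore, results that rest on this library are also given without it, and fewer cells of a type and less RNA per cell cannot be told apart in bulk RNA.

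Cdkn2a itself, the gene that the study modifies, did not differ detectably between the controls. It stood at 58.0, 36.2 and 75.9 CPM with nc shRNA and at 57.7, 32.5 and 79.9 CPM with empty vector, so that libraries with equal number had nearly equal levels. The log2 fold change (nc shRNA minus empty vector) was -0.00 with a standard error of 0.40 (edgeR quasi-likelihood test, adjusted p = 1.0). For comparison, the libraries with P16 shRNA had 9.22, 5.12 and 5.66 CPM and those with P16 had 222, 330 and 137 CPM of Cdkn2a.

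Over the whole transcriptome, the number of genes called between the 2 controls depended on whether the replicate number entered the fit. In edgeR's quasi-likelihood test of 14473 genes none had an adjusted p (Benjamini-Hochberg) under 0.05. At an unadjusted p under 0.05 there were 458 genes, or 3.16% of those tested, 207 higher with nc shRNA (1.43%) and 251 lower (1.73%). The groups did not overlap, with every nc shRNA library above every empty vector library, for 697 genes (4.82%), and lay the other way round for 638 (4.41%). DESeq2 called 1 gene higher and 17 lower at an adjusted p under 0.05. Same-numbered libraries varied together: the spread (SD) of the log2 ratio over the tested genes was 0.563 between nc shRNA 1 and empty vector 1 and 0.414 between nc shRNA 2 and empty vector 2, against 0.671 to 0.943 for the other pairs across the groups. With the replicate number as a block in a fit of all 12 Cd31 libraries, 7 of 15426 genes (0.0454%) were higher and 13 (0.0843%) lower with nc shRNA at an adjusted p under 0.05. At an unadjusted p under 0.05 that fit gave 692 higher and 908 lower genes, more than without the block. The same block in the 6 libraries alone, with 1 residual degree of freedom, gave 444 genes at an adjusted p under 0.05.

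The leading genes lower with nc shRNA were picked for groups that do not overlap, so the absence of overlap in them follows from the choice. The 10 lower genes with the smallest p among those without overlap were Mgat4b, Rnf149, Tulp3, Rabl6, Rnf166, Pgm1, Glipr2, Gabarapl1, Lgmn and Ilrun. They were picked by this contrast, so their log2 fold changes of -1.21 to -0.58 and unadjusted p of 1.67e-05 to 0.000895 describe them and are no further evidence. Mgat4b, which adds a branch to N-linked glycans, stood first. Its levels were 50.2, 59.4 and 49.3 CPM with nc shRNA and 122, 122 and 126 CPM with empty vector, or 52.97 ± 5.57 against 123.1 ± 2.17 (SD, n = 3 each). Every nc shRNA library lay far below the lowest empty vector library, and the log2 fold change of Mgat4b was -1.21 with a standard error of 0.12 (edgeR, adjusted p = 0.241, with the block over 12 libraries adjusted p = 0.0019, without empty vector 5 -1.20).

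Rnf149, a membrane-bound ubiquitin ligase, had 29.7, 28.9 and 31.3 CPM with nc shRNA and 58.3, 53.4 and 64.5 CPM with empty vector. Its log2 fold change was -0.97 with a standard error of 0.12 (edgeR, adjusted p = 0.532, with the block 0.019). Tulp3, which carries membrane receptors into the primary cilium, had 41.4, 43.6 and 43.0 CPM against 68.6, 70.6 and 69.2 CPM, a difference many times larger than the spread of either group. Lgmn, the lysosomal protease legumain, had 86.0, 71.9 and 73.0 CPM against 151, 115 and 137 CPM. Rabl6, a GTPase-like protein, had 45.8, 47.9 and 52.9 CPM with nc shRNA and 85.8, 87.6 and 73.4 CPM with empty vector. The remaining ones, Rnf166 (a ubiquitin ligase), Pgm1 (phosphoglucomutase), Glipr2 (a Golgi protein), Gabarapl1 (a component of autophagosomes) and Ilrun (a regulator of inflammation), had log2 fold changes between -0.71 and -0.58. With the block over 12 libraries 7 of the 10 had an adjusted p under 0.05. Of the 13 genes called lower with the block, 11 did not overlap in the 6 libraries, further ones being Scpep1, a serine carboxypeptidase (77.2, 94.6 and 80.1 CPM against 126, 172 and 125.2 CPM), Zfand2a, Bri3bp and Ydjc. Because the 6 libraries are among the 12, both counts describe the same data and add no evidence. Over all tested genes 4.41% were apart in that direction.

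**Figure D1:**
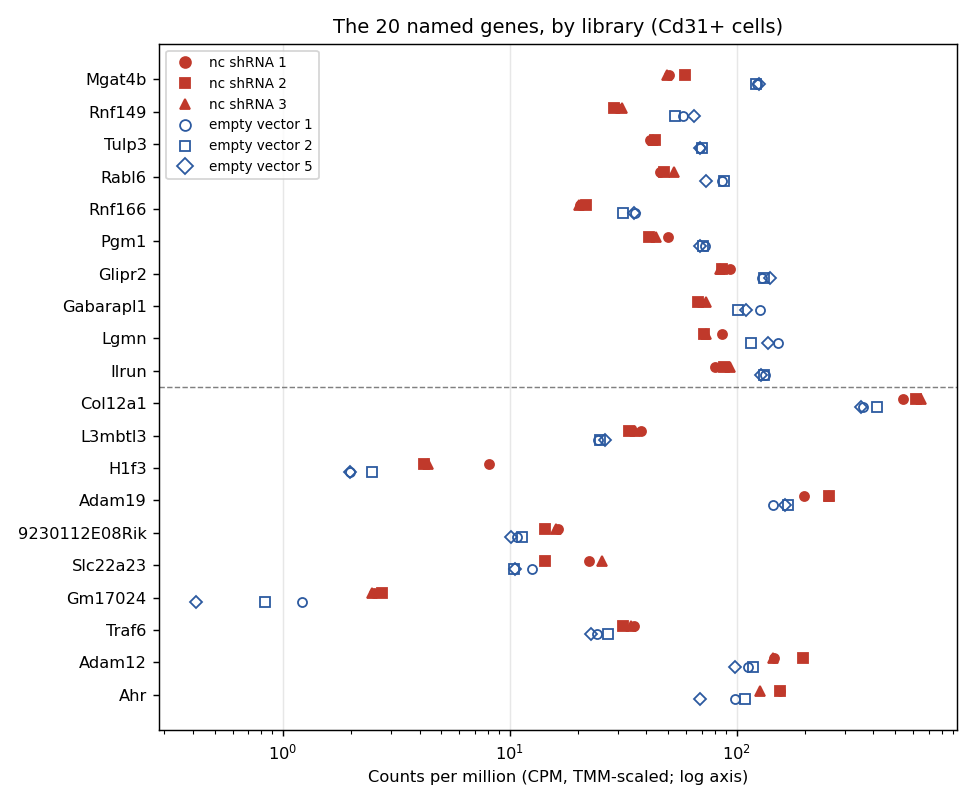
Levels in CPM (log axis) of the 10 genes lower (above the dashed line) and the 10 higher with nc shRNA that had the smallest p among those whose groups do not overlap; filled red symbols are the 3 nc shRNA libraries, open blue symbols the 3 empty vector libraries, and symbol shapes give the replicate number. Mgat4b is at 49.3 to 59.4 CPM with nc shRNA and at 122 to 126 CPM with empty vector, and the genes were picked for the absence of overlap.

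The other transduced Cd31+ libraries give the levels of these genes under the remaining constructs, side by side and with no test. With P16 shRNA, from the same backbone as nc shRNA, Mgat4b was at 87.1 ± 9.13 CPM, Rnf149 at 78.9 ± 11.8, Tulp3 at 73.5 ± 1.71 and Lgmn at 148 ± 17.7 (SD, n = 3 each). With P16, from the backbone of the empty vector, Mgat4b was at 128 ± 16.8 CPM, Rnf149 at 64.6 ± 4.21, Tulp3 at 71.0 ± 6.17 and Lgmn at 138 ± 16.4 (SD, n = 3 each). The mean with P16 was nearer to that of the empty vector than to that of nc shRNA for 10 of the 10 genes, and the mean with P16 shRNA for 9. Mgat4b was the exception, with an intermediate level under P16 shRNA. For the 10 higher genes named below, the mean was nearer to the empty vector for 10 with P16 and for 5 with P16 shRNA.

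Cd146+ cells, which the study used as sinusoidal endothelial cells, were transduced with the same 2 controls (6 further libraries, 3 per group). The same contrast thus exists in libraries that the choice of genes did not use. The Xist-positive ones were nc shRNA 5 and empty vector 4 and 5. In both populations more empty vector than nc shRNA libraries were therefore Xist-positive, and the part of this in the contrast was not tested. All 10 genes had a negative log2 fold change there, between -1.08 and -0.13. For 7 of them the Cd146+ groups did not overlap, where this held for 4.65% of the 14976 genes tested in Cd146+ cells. Mgat4b had 65.2, 39.9 and 62.3 CPM with nc shRNA and 112, 137 and 105 CPM with empty vector in Cd146+ cells, a log2 fold change of -1.08 with a standard error of 0.23. Lgmn had 71.3, 57.6 and 112 CPM against 118, 224 and 148 CPM. Pgm1, Glipr2 and Gabarapl1 overlapped. Gabarapl1 had the smallest difference, with 116, 146.2 and 99.9 CPM against 120, 127 and 147 CPM in Cd146+ cells and an unadjusted p of 0.0241 for the difference between the populations (edgeR interaction, adjusted p = 1.0). Of the 13 genes lower with the block, 12 were below 0 in Cd146+ cells and 9 did not overlap there. In the Cd146+ libraries no gene passed an adjusted p of 0.05 (edgeR), 319 genes (2.13%) being lower and 278 higher at an unadjusted p under 0.05.

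**Figure D2:**
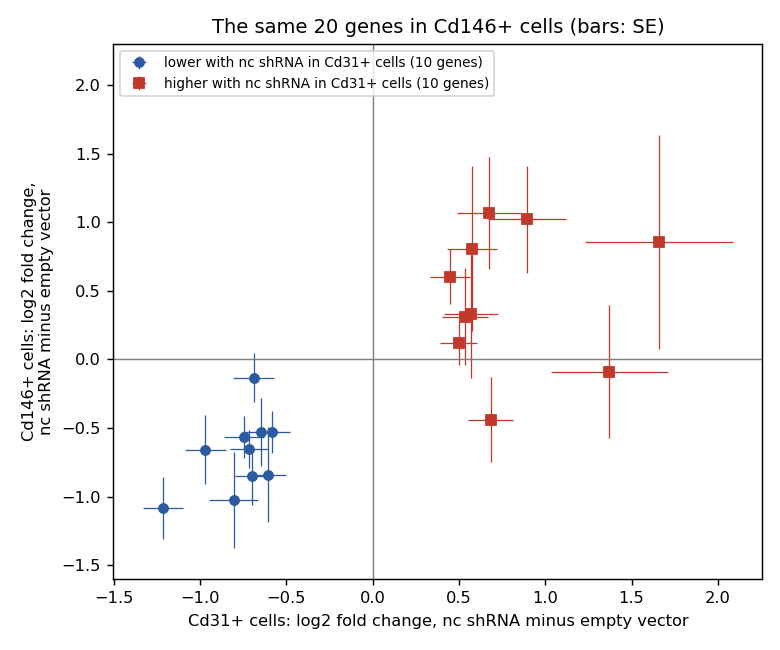
Log2 fold change (nc shRNA minus empty vector) of the same 20 genes in Cd31+ cells (horizontal axis) and in the separate Cd146+ libraries (vertical axis); circles are the 10 lower genes, squares the 10 higher genes, and bars give 1 standard error. The 10 circles lie below 0 in both populations, and 8 of the 10 squares lie above 0 in both.

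Because a hairpin can lower messages through short sites in the 3′ UTR, the genes were also described by the words of 7 bases in their 3′ UTRs (longest 3′ UTR per gene, GENCODE M21, GRCm38). For each of 8586 words present in at least 1000 genes, the mean log2 fold change of the genes that hold it was taken after removing the trend with UTR length and GC content in 12377 genes. The 3 words with the lowest mean overlap each other and join into the 9 bases GAAGAGCAA. They are shown here because 9 of the 10 lower genes hold at least 1 of them, beside 29.3% of all tested genes. Words and genes were both chosen on this contrast, so that count describes the choice and adds no evidence. The words are listed with their bases in capitals.
word 1: AGAGCAA
word 2: AAGAGCA
word 3: GAAGAGC
The mean shift was -0.0458 for word 1 (1712 genes), -0.0411 for word 2 (2118 genes) and -0.0387 for word 3 (1699 genes), while the fifth percentile of all words was -0.009 and the median 0.0044. Without empty vector 5 the same 3 words were again the lowest, with -0.0424, -0.0454 and -0.0524, and with the genes lower at an unadjusted p under 0.05 left out they ranked 1, 4 and 5 of 8468. In the Cd146+ libraries, which had no part in the choice of the words, AGAGCAA ranked 7 of 8521 words (-0.0378), AAGAGCA 34 (-0.0303) and GAAGAGC 72 (-0.0255). These shifts are small beside the standard error of any single gene, and words that share genes are not independent.

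The longer the stretch of the 9 bases in the 3′ UTR, the larger was the share of genes lower with nc shRNA. Of the 8750 genes with none of the words, 1.18% were lower at an unadjusted p under 0.05 and 1.22% were higher. Among 2537 genes with a stretch of 7 bases the shares were 2.6% lower and 1.34% higher. A stretch of 8 bases was held by 936 genes, with 5.24% lower and 1.5% higher, and the whole 9 bases by 154 genes, with 5.84% lower and 1.3% higher. The words were chosen on these fold changes, so the Cd146+ libraries give the separate reading: lower shares of 2.01%, 2.59%, 3.56% and 5.92% and higher shares of 1.82%, 2.43%, 2.05% and 2.63% in the same order. Genes that hold a word have longer 3′ UTRs, with a median of 2194 to 2898 bases against 887 bases for genes without one. A word was held by 29.3% of all tested genes (median 3′ UTR 1222 bases), by 38.1% of the genes lower in Cd146+ cells at an unadjusted p under 0.05 (1159 bases) and by 34.7% of those higher there (1776 bases). In Cd31+ cells, where the words were chosen, 54.6% of the lower genes (941 bases) and 31.8% of the higher genes (1951 bases) held one, which describes the choice and adds no evidence. Most genes with a word did not stand apart, since the median log2 fold change was 0.00 with 7 bases, -0.03 with 8 and -0.03 with 9. Whether the nc hairpin pairs with these sites was not tested.

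**Figure D3:**
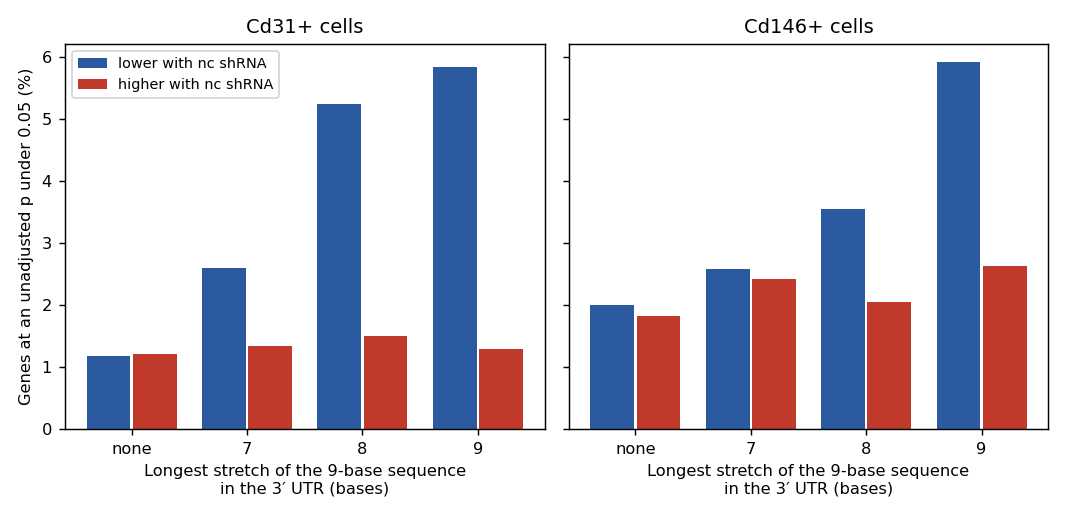
Percent of genes (axis from 0) with an unadjusted p under 0.05 that were lower (blue) or higher (red) with nc shRNA, by the longest stretch of the 9-base sequence in the 3′ UTR, in Cd31+ cells (left) and Cd146+ cells (right). The lower share goes from 1.18% to 5.84% in Cd31+ and from 2.01% to 5.92% in Cd146+ cells, and the higher share stays between 1.22% and 1.5% and between 1.82% and 2.63%.

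The sites themselves are shown for 5 of the lower genes, with their bases in capitals and 10 flanking bases in lower case, 5′ to 3′ along the message (GENCODE M21, GRCm38). They show that the same core sits in different surroundings.
Mgat4b, chr11:50234933-50234959, plus strand: cgggccgttaGAAGAGCtttttcttgg
Rnf149, chr1:39551363-39551391, minus strand: tacatactttGAAGAGCAAggagtccatt
Tulp3, chr6:128322908-128322936, minus strand: cctagcacaaGAAGAGCAAcattctgccc
Rnf166, chr8:122466604-122466631, minus strand: gtttgactagGAAGAGCAgtatttttat
Pgm1, chr4:99986810-99986837, plus strand: ccacctgattGAAGAGCAcggacagaaa
Rnf149, Tulp3, Rnf166 and Glipr2 each held 2 sites in this transcript. Scpep1, Zfand2a and Bri3bp, lower with the block, held 2 sites each, and Fras1, higher with the block, also held 2, with 1 in Perp. Rabl6 is the one of the 10 lower genes without any of the 3 words. Of the 10 higher genes named below, 8 had an annotated 3′ UTR and 2 of these held a word, Traf6 at 1 site and Adam12 at 3, more than any of the 10 lower genes.

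The leading genes higher with nc shRNA had larger p than the leading lower ones. The 10 with the smallest p among those without overlap were Col12a1, L3mbtl3, H1f3, Adam19, 9230112E08Rik, Slc22a23, Gm17024, Traf6, Adam12 and Ahr, with log2 fold changes of 0.45 to 1.66 and unadjusted p of 0.00118 to 0.00834. Col12a1, a fibril-associated collagen, had 541, 618 and 650 CPM with nc shRNA and 359, 417 and 351 CPM with empty vector, a log2 fold change of 0.68 with a standard error of 0.13 (edgeR, adjusted p = 0.992). Ahr, the aryl hydrocarbon receptor, had 156, 156 and 126 CPM against 98.1, 108 and 68.9 CPM. Traf6, an adaptor of Toll-like and interleukin-1 receptors, had 35.1, 31.4 and 34.4 CPM against 24.2, 27.2 and 22.7 CPM. H1f3, a linker histone, had 8.09, 4.18 and 4.38 CPM against 1.98, 2.46 and 1.98 CPM, nc shRNA 1 being the highest.

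In Cd146+ cells 8 of these 10 genes had a positive log2 fold change and 3 of these an unadjusted p under 0.05, and the groups were apart for 1, Traf6 (34.2, 38.6 and 26.0 CPM against 24.9, 18.2 and 21.5 CPM), where 4.5% of all genes were apart in that direction. Col12a1 had 648, 549 and 755 CPM with nc shRNA and 1282, 604 and 761 CPM with empty vector there, and its fold changes in the 2 populations differed at an unadjusted p of 0.00845 (edgeR interaction, adjusted p = 1.0). With the block over 12 libraries none of the 10 passed an adjusted p of 0.05. The 7 genes that did were others, and in the 6 libraries the groups overlapped for each of them. Tnfsf18, a cytokine of the tumour necrosis factor family, had 62.1, 24.4 and 82.4 CPM with nc shRNA and 29.3, 13.3 and 29.3 CPM with empty vector, so that it was higher within each shared number. Fras1, an extracellular matrix protein of basement membranes, had 28.8, 6.42 and 30.5 CPM against 11.0, 2.46 and 6.44 CPM (adjusted p = 0.05 with the block). Ptprq and Perp were also among the 7. In the fit of the 6 libraries without the block their sign turned when 1 library was left out. The fit with the block was not repeated with single libraries left out.

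The genes of the interferon response were the list with the lowest median. Of 57 measured members 56 had a negative log2 fold change, Ifit2 being the exception, and the median was -1.04, while the median over all tested genes was -0.00. At an unadjusted p under 0.05 there were 12 lower and 0 higher members, against 1.73% and 1.43% of all genes. Among them were Oas1a, Irf7, Ifi44, Parp9, Parp12, Parp14, Dtx3l, Gbp2, Ifitm3, Apol9a and Apol9b, and none of the 12 had an adjusted p under 0.05. The groups were apart, with nc shRNA lower, for 3 members, Ifitm3, Sp100 and Apol9b, a share near the 4.41% of all tested genes.

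Ifitm3, which blocks the entry of viruses, had 151, 132 and 207 CPM with nc shRNA and 211, 236 and 330 CPM with empty vector, a log2 fold change of -0.67 with a standard error of 0.24 (without empty vector 5 -0.45). Apol9b, an interferon-induced apolipoprotein, had 1.09, 1.02 and 3.15 CPM against 3.46, 7.08 and 7.96 CPM, but reads of Apol9a and Apol9b, which are near-identical, may be split between them. Isg15, a ubiquitin-like modifier, had 0.408, 2.37 and 9.15 CPM against 2.54, 25.03 and 56.5 CPM, and Ifit1, which binds foreign RNA caps, 0.748, 2.00 and 13.1 CPM against 4.37, 23.9 and 47.3 CPM. In both genes each nc shRNA library was below the empty vector library of the same number, with log2 ratios of -2.54 and -3.39 for Isg15 and of -2.49 and -3.57 for Ifit1 (numbers 1 and 2). Their groups overlapped all the same, and the log2 fold changes of -2.82 and -2.26 had standard errors of 1.33 and 1.22. Gbp2, a guanylate-binding protein, was set by 1 library, with 2.58, 2.56 and 6.23 CPM against 5.54, 6.44 and 64.7 CPM in empty vector 5.

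The mean log2 CPM of the 57 genes was 1.66, 2.24 and 3.28 with nc shRNA and 2.38, 3.86 and 4.39 with empty vector, or 2.40 ± 0.82 against 3.54 ± 1.04 (SD, n = 3 each). The difference (nc shRNA minus empty vector) was -0.718 for number 1 and -1.62 for number 2, and nc shRNA 3 was above empty vector 1. The median log2 fold change of the list was -0.65 without empty vector 5 and -0.73 with the block over 12 libraries, where no member passed an adjusted p of 0.05. With the block in the 6 libraries alone, a fit with 1 residual degree of freedom, 40 of the 57 were lower at an adjusted p under 0.05. The libraries with P16 shRNA had a mean log2 CPM of 4.42, 4.28 and 6.14 and those with P16 (numbers 2, 3 and 5) of 3.49, 3.20 and 5.03. The nc shRNA libraries 1 and 2 were the lowest of their numbers, whereas nc shRNA 3 was slightly above P16 3. In Cd146+ cells the median was -0.90, with 52 of 55 tested members below 0. There 23 members were lower at an unadjusted p under 0.05, against 2.13% of all genes. For 26 members the groups did not overlap, with nc shRNA lower, against 4.65% of all genes. Isg15 had 0.818, 3.29 and 3.25 CPM with nc shRNA and 5.86, 17.1 and 15.2 CPM with empty vector in Cd146+ cells. No member differed between the populations at an unadjusted p under 0.05, the smallest being 0.139 (edgeR interaction). Ifnb1, the gene of interferon beta, had at most 1 count in any of the 6 Cd31+ libraries.

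**Figure D4:**
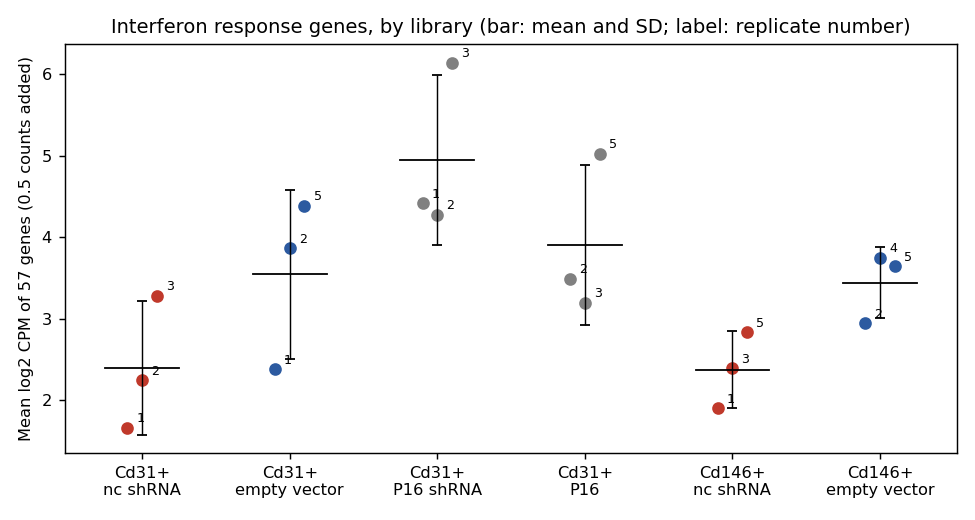
Mean log2 CPM of the 57 interferon response genes in each library, by group, for the 4 constructs in Cd31+ cells and the 2 controls in Cd146+ cells; points are libraries labelled with their replicate number, and black bars give the mean and SD of 3 libraries. The nc shRNA libraries lie at 1.66 to 3.28 and the empty vector libraries at 2.38 to 4.39 in Cd31+ cells, with overlap.

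The promoters of many of these genes hold a letter pattern, which describes the list and not the difference between the controls. The interferon-stimulated response element, searched as GAAANNGAAA or its reverse TTTCNNTTTC from 250 bases before to 50 bases after the start (RefSeq, GRCm38.p6), was present in 26 of 46 list members with a promoter sequence (56.5%), in 3.99% of all 27025 genes with one and in 3.66% of the 10369 of these that were tested. Oas1g and Oas3 are among the 26 but were not tested. Of the 9 matched members that were lower at an unadjusted p under 0.05, 5 held it (55.6%). Sites of 4 genes are shown, as they span the genes described above, with the pattern in capitals, and a match is a description only.
Isg15, chr4:156200871-156200900, minus strand: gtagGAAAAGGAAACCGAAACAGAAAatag
Ifit1, chr19:34640777-34640802, plus strand: ggcttcagTTTCACTTTCcagtctca
Oas1a, chr5:120907523-120907552, minus strand: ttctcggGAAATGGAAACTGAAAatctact
Apol9b, chr15:77729028-77729057, plus strand: gtgagacTTTCAGTTTCCATTTCccagttg
The promoter of Apol9a holds the same letters as that of Apol9b.

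Of 27 genes of RNA and DNA sensing 21 were below 0, with a median of -0.18 (-0.09 without empty vector 5), and 3 were lower at an unadjusted p under 0.05, beside 1.73% of all genes. Oas1a and Irf7 of these were already counted in the interferon list. The remaining one, Ifi204, a DNA sensor, had 37.0, 34.2 and 38.02 CPM with nc shRNA and 49.5, 51.2 and 49.7 CPM with empty vector, while its log2 fold change in Cd146+ cells was 0.32. Of 21 genes of antigen presentation 20 were below 0, with a median of -0.31 (-0.26 without empty vector 5) and none at an unadjusted p under 0.05. Of 29 genes of RNA interference 2 were higher and 0 lower at an unadjusted p under 0.05, beside 1.43% and 1.73% of all genes. The median was 0.06. Dicer1, which cuts hairpins, had 82.2, 80.1 and 85.0 CPM with nc shRNA and 66.5, 67.3 and 64.1 CPM with empty vector, and Tnrc6b, a partner of Argonaute, had 104, 89.8 and 97.4 CPM against 78.5, 83.3 and 57.6 CPM. Neither passed the adjusted threshold.

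Replication-dependent histone genes were the list with the highest median, 0.93, and all 12 measured members were above 0 (1.23 without empty vector 5, 0.25 in Cd146+ cells). At an unadjusted p under 0.05, 2 of the 12 were higher, beside 1.43% of all genes, and 4 were apart, beside 4.82%. H4c8 had 2.99, 2.14 and 2.86 CPM with nc shRNA and 0.915, 0.885 and 1.98 CPM with empty vector. These messages lack a poly(A) tail, and the libraries were made by poly(A) selection. The median was 0.46 without nc shRNA 1, which was also the shallowest library and had the highest share of mitochondrial counts (2.23%, against 1.21% to 1.64% in the other 5) and 2378 CPM of Malat1, a nuclear RNA, against 692 to 1149 CPM. The part of these library differences in the histone result was not tested. Of 36 genes of the mitochondrial respiratory chain 4 were higher at an unadjusted p under 0.05, beside 1.43% of all genes. All 4 were encoded in mitochondria, among them mt-Nd2 with 1853, 977 and 1228 CPM against 932, 728 and 780 CPM, and the median over the list was 0.04.

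Proliferation, senescence and angiogenesis are the programmes for which the study examined P16. In edgeR, none of 71 mitosis genes and none of 40 S phase genes had an unadjusted p under 0.05 between the controls, with medians of 0.00 and -0.04. Of the mitosis genes, 24 were lower with nc shRNA within number 1 and 51 within number 2. In Cd146+ cells the medians were -0.40 for mitosis and -0.29 for S phase. At an unadjusted p under 0.05, 3 mitosis genes were lower and 0 higher there, and 1 S phase gene was lower and 1 higher. Single members of the next lists are about what the shares over all genes give (1.73% lower and 1.43% higher) and are named as descriptions. Of 28 cell cycle inhibitors and p53 targets 1 was lower, Bbc3 (20.7, 34.0 and 27.3 CPM with nc shRNA against 34.7, 47.2 and 43.3 CPM), which promotes apoptosis. Of 37 secreted factors of senescence 1 was lower, Igfbp4, a binding protein of insulin-like growth factors (23.6, 40.4 and 18.8 CPM against 42.3, 48.1 and 44.0 CPM), and none of 11 chemokines differed at that threshold. Among the 42 angiogenic signalling genes Plxnd1, a semaphorin receptor (65.0, 65.5 and 85.1 CPM against 97.0, 102 and 98.8 CPM), and Nrp2, a VEGF co-receptor, were lower and Vegfc, a ligand, was higher at an unadjusted p under 0.05.

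Of 44 collagen and matrix genes 31 were above 0, with a median of 0.18 (0.09 without empty vector 5), but within the pairs of numbers 1 and 2 the medians were -0.02 and -0.02, with 22 of 44 genes lower in each. Col12a1, Lox and Sparc were higher and Col16a1 lower at an unadjusted p under 0.05, beside 1.43% and 1.73% of all genes. Col16a1 (154, 191 and 157 CPM against 330, 288 and 175 CPM) was among the genes called lower with the block. Of 29 genes of TGF-beta signalling and mesenchymal transition, Bambi was among those higher and Twist1 was lower at an unadjusted p under 0.05, and the median was 0.16. In the unfolded protein response Herpud1, which acts in degradation at the endoplasmic reticulum, had 67.8, 65.0 and 47.7 CPM with nc shRNA and 85.1, 117 and 96.8 CPM with empty vector, and it was lower in Cd146+ cells too (49.4, 34.3 and 56.7 CPM against 103, 68.1 and 77.3 CPM). Of that list, 2 of 27 were lower (Herpud1 and Pdia4) and 1 higher (Syvn1) at an unadjusted p under 0.05, beside 1.73% and 1.43% of all genes. The median was -0.11. In cholesterol and fatty acid synthesis 2 of 33 were lower, Pmvk and Fdps, beside 1.73% of all genes. The median was -0.22, -0.12 without empty vector 5 and -0.07 with the block over 12 libraries, and in Cd146+ cells it was -0.47. In Cd146+ cells 10 members were lower and 1 higher at an unadjusted p under 0.05, where 2.13% of all genes were lower. Heat shock, oxidative stress and ribosomal protein genes had 0 members at an unadjusted p under 0.05, and their medians lay between -0.09 and -0.02.

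The medians of several cell type marker lists depended on empty vector 5. The median log2 fold change of 22 endothelial markers was -0.43 over the 6 libraries and 0.53 without empty vector 5, and that of 14 sinusoidal markers -0.37 and 0.13. Macrophage markers had a median of -0.45 and of -0.09 without it. In mean log2 CPM, the endothelial markers were at 3.25, 2.62 and 4.48 with nc shRNA and at 3.30, 2.57 and 5.35 with empty vector. Libraries 1 and 2 of both groups were thus alike, and both nc shRNA 3 and empty vector 5 stood above them. The sign of the endothelial and sinusoidal medians therefore turned without 1 library. Within same-numbered pairs the medians for numbers 1 and 2 were -0.02 and 0.07 for endothelial, -0.18 and -0.18 for sinusoidal and 0.16 and 0.38 for macrophage markers, so that the pairing turned the sign for macrophages, as did the block over 12 libraries (0.19). Stab2 and Lyve1, receptors of liver sinusoids, had at most 15 and 52 counts in any of the 6 libraries. Of the 26 macrophage markers 4 had 3 counts or fewer in every library, among them Clec4f, a marker of Kupffer cells, with 0.

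**Figure D5:**
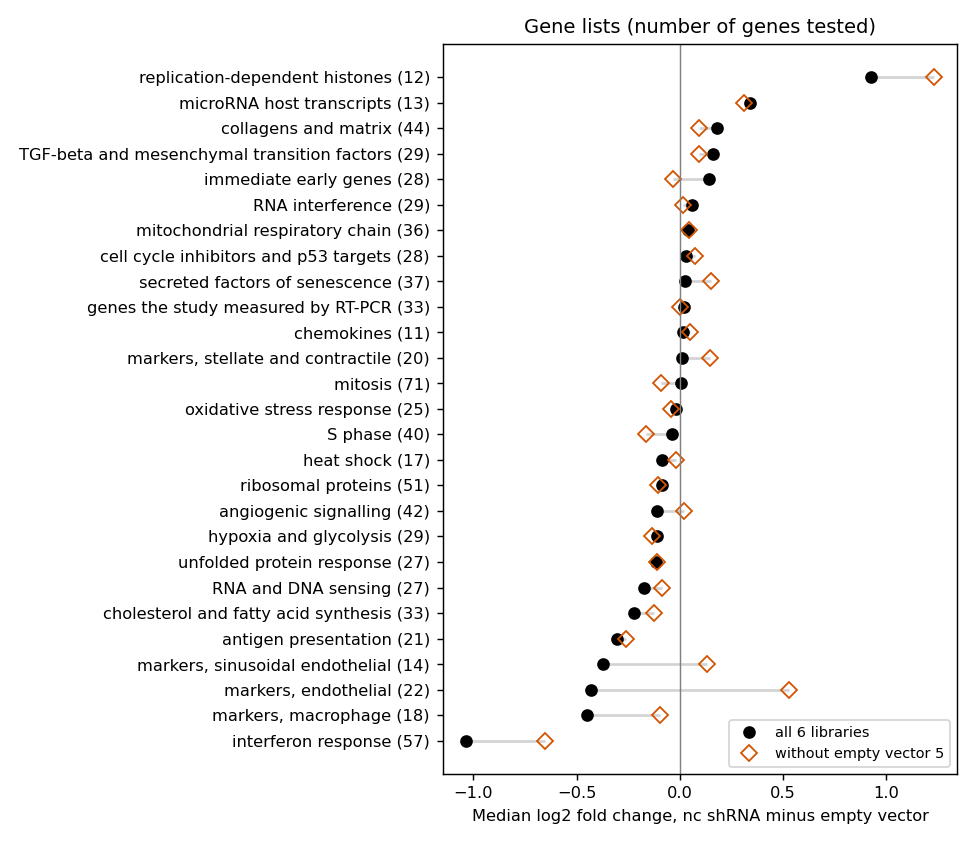
Median log2 fold change (nc shRNA minus empty vector) of each gene list with at least 10 tested genes, with all 6 libraries (black) and without empty vector 5 (orange diamonds); the number of genes tested is given beside each name. The interferon response has the lowest median in both (-1.04 and -0.65), replication-dependent histones the highest (0.93 and 1.23), and the endothelial markers change sign.

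No gene differed between Cd31+ and Cd146+ cells in the effect of the control construct at an adjusted p under 0.05 (edgeR interaction over 12 libraries, 15676 genes). At an unadjusted p under 0.05 the fold change was higher in Cd31+ cells for 143 genes and lower for 80. Cnp, an enzyme of cyclic nucleotide metabolism known from myelin (chosen for this difference), had 13.6, 13.5 and 14.4 CPM with nc shRNA and 19.7, 18.2 and 21.3 CPM with empty vector in Cd31+ cells, and 24.5, 17.9 and 18.4 CPM against 15.8, 16.6 and 16.8 CPM in Cd146+ cells, which gave the smallest p in that direction (unadjusted p = 0.00198 in edgeR). Ifnar2, a chain of the type I interferon receptor, had 35.3, 33.4 and 36.7 CPM against 45.5, 37.8 and 43.4 CPM in Cd31+ cells, and 53.2, 58.2 and 47.7 CPM against 40.9, 43.8 and 47.5 CPM in Cd146+ cells.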

How the data were processed

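RNA was taken from transduced Cd31+ and Cd146+ mouse liver cells 1 week after transduction, and poly(A) RNA was sequenced by a company. The authors deposited raw counts per gene (56748 genes, 24 libraries), which were used here, next to FPKM values and columns of their own comparisons (fold changes, p-values), which were not used. The submitters' processing notes name fastp and mm9, while 339 of 14313 tested genes had the same start and end in GENCODE M21 (GRCm38), so gene coordinates of the table are not printed. Aligner and counter are not given in the sources used here.

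Genes were kept by filterByExpr, scaled by TMM and tested with edgeR 4.0.16 (robust quasi-likelihood, R 4.3.3) over the 6 libraries, with Benjamini-Hochberg adjustment over all tested genes. The difference between populations was an interaction over 12 libraries. Named genes were Cdkn2a, the 10 genes per direction with the smallest p among those without overlap and a mean CPM of at least 1, genes with adjusted p under 0.05 in the fit with the replicate block over 12 Cd31 libraries, the 3 most abundant and up to 5 smallest-p members of each list, and the 5 per direction with the smallest p for the difference. Ifit2, Isg15, Ifit1, Oas1g, Oas3, Sp100, Gbp2, Ifi44, Dtx3l, Parp9, Parp12, Parp14, Stab2, Lyve1, Clec4f, Alb, Pecam1, Ifnb1 and Malat1 were named after their values were seen. The libraries, gene lists and words were chosen with earlier results of these data known. For the 3′ UTR words, fold changes were limited to 2 (log2) in either direction and 3′ UTRs under 30 bases left out. CPM are TMM-scaled, and mean log2 CPM added 0.5 counts. A limit of 3 counts covers counting error only. The fit was tested on simulated counts with known changes.

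Replicate numbers are taken to pair the samples: deviations from group means over the 12 Cd31 libraries correlated with a median r of 0.539 in 13 same-numbered pairs (lowest 0.385) and -0.171 in 41 others. Numbers 1 and 2 alone occur in both control groups. No 2 of the 6 libraries held identical counts. Alternatives were other filters, DESeq2 1.42.0, its size factors, library totals, more libraries, the replicate block and leaving out each library, and 3 were chosen after seeing the data (numbers 1 and 2 alone, the block without number 5, and a term for Xist). Of the list symbols, 4 were not found. Some items are not reported here.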

Additional observations from a re-analysis of the deposited data

Results flagged for a closer look

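For 3 of the named genes the groups were apart in both populations but in opposite directions. The fold change in Cd31+ minus that in Cd146+ cells was -0.82 (log2) for Cnp (edgeR interaction, unadjusted p = 0.00198), -0.53 for Ifnar2 (unadjusted p = 0.0079) and 1.77 for Gm4786, a processed pseudogene whose reads may come from its parent gene (unadjusted p = 0.00519). The adjusted p was 1.0 for each. These genes were named for a small p of this difference, which favours groups apart in opposite directions, so the count adds no evidence. Of all tested genes, 4.41% were apart with nc shRNA lower and 4.82% with it higher in Cd31+ cells. In Cd146+ cells these shares were 4.65% and 4.5%.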

How the results depend on the processing

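The count of 0 adjusted calls became 11 with all genes of at least 1 count, 18 with DESeq2, 4 with all 12 Cd31 libraries, 444 with the replicate block in 6 libraries (1 residual degree of freedom), 20 with the block in 12 libraries (5 degrees), 5 with that block without number 5 and 2 with a term for Xist. It stayed 0 when any 1 of the 6 libraries was left out. Genes higher at an unadjusted p under 0.05 (207) numbered 417 with all genes of at least 1 count, 837 and 692 with the block in 6 and 12 libraries, 605 with the block without number 5 and 111 with numbers 1 and 2 alone. Lower genes (251) numbered 560, 1063, 908 and 857 under the first 4 of these and 389 with the Xist term. Leaving out 1 library gave 153 to 281 higher and 200 to 353 lower genes.

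For the difference between populations, the 143 higher and 80 lower genes became 422 and 167 with all genes of at least 1 count, and 158 and 126 with the block. Leaving out 1 library gave 84 to 383 and 41 to 359, the lowest without Cd31 empty vector 1 and the highest without Cd146 nc shRNA 5. Without Cd146 nc shRNA 3 there were 90 and 55, and without Cd146 empty vector 5 there were 319 and 241. Cdkn2a, near 0, turned to 0.094 with the block in 6 libraries, 0.064 with numbers 1 and 2, 0.24 with the block without number 5 and 0.0080 with the Xist term, and lay between -0.29 and 0.33 with 1 library left out. Under the same omission Ptprq ranged from -0.87 to 0.72 and Perp from -0.033 to 1.00. The cause of these changes was not tested, except that the filter and the omissions change the genes or libraries tested. Counts of 3 or fewer limit what the sparsest genes can show.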
